A study of Mus musculus with 2 samples.

Results

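The transcripts of 8 genes of the mitochondrial cell death pathway were followed in single-cell RNA libraries of the mouse retina. The genes were Bax, Bak1, Bcl2l1, Mcl1, Bcl2l11, Bad, Apaf1 and Casp9. They were chosen by name, as members of the Bcl-2 family or partners of a caspase, out of the 32285 genes in the count matrices, of which 32235 had a symbol in the GENCODE annotation of GRCm38. Each of the 8 genes matched 1 Ensembl identifier, and none overlapped another gene on its own strand.

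Retinae came from mice aged 6 to 9 weeks on a mixed Balb-C and CD1 background. Mice of both groups carried floxed Tgfbr2 alleles, which the study treats as functionally wild type, and had the L450 form of RPE65 on both alleles. Both sexes were used. Control mice spent 18 h in complete darkness. The light damage group was exposed, after the same dark period, to 5000 lux of white fluorescent light for 30 min and had 6 h of recovery in dim light. Each condition was measured in 1 library of the 10x Genomics 3′ chemistry, made from the pooled retinae of 3 to 5 mice, with no replicate. There is therefore no test and no p-value, and the 95% intervals printed cover counting error alone, not how mice or libraries vary.

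Intrinsic apoptosis runs through the mitochondrial outer membrane. Bax and Bak1 encode the effector proteins that open this membrane, and Bcl2l1 (Bcl-xL) and Mcl1 encode proteins that hold them in check. Bcl2l11 (Bim) and Bad encode BH3-only proteins, each of which binds and blocks some or all of the protective members of the family. Cytochrome c that leaves the mitochondrion assembles with Apaf1 into the apoptosome, which activates the initiator caspase encoded by Casp9. Much of this control acts on the proteins, by binding, phosphorylation and cleavage, and RNA levels do not show it.

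Unique molecular identifiers (UMIs) totalled 30605284 over 542576 barcodes in the control and 54413601 over 944146 barcodes after light damage. After filtering, 3669 control and 5593 light damage droplets were kept, with a median of 2848 and 4480 UMIs, and only 7 kept barcodes occurred in both libraries. Xist had 4748 UMIs in the kept control droplets and 3 in those of the light damage library, so the pools differed in the sex of the mice, and sex and light damage cannot be told apart. None of the 8 genes lies on a sex chromosome. Droplets were clustered together into 15 clusters and named by marker genes. Rod droplets were then split on the share of their UMIs that came from unspliced RNA, at 25%. Low-unspliced rods numbered 2416 control and 1790 light damage droplets, and high-unspliced rods 762 and 3121. There were 209 and 104 cone-like droplets, 159 and 294 droplets like the retinal pigment epithelium (RPE), and 49 and 27 Müller-like droplets. All 10 rod markers were present in both rod groups. All 8 cone markers had UMIs in cone-like and all 8 Müller markers in Müller-like droplets of both libraries, while of the 8 RPE markers Best1 alone was at 0 in control RPE-like droplets and none was after light damage.

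Levels are CPM (scaled counts), the spliced plus ambiguous UMIs of a gene scaled to a sum of 1000000 such UMIs in the group, and unspliced CPM are the same for unspliced UMIs. A gene was called higher or lower where its CPM differed at least 2-fold between light damage and control and the interval of the ratio excluded equality, provided that the 2 groups together held 20 or more of its UMIs. Depth differed between the groups. The rod groups summed to between 1744746 and 10862612 spliced plus ambiguous UMIs, the cone-like droplets to 736885 in the control and 1351307 after light damage, the RPE-like droplets to 694265 and 2362693, and the Müller-like droplets to only 124520 and 318494. Free RNA, which reaches droplets from broken cells, was measured in barcodes under 50 UMIs. From RPE markers in rods, and from rod markers in the other classes, it was estimated to make up 0.879% and 0.526% of low-unspliced and 2.58% and 0.886% of high-unspliced rods, the control value first. It was estimated at 10.2% and 6.53% in RPE-like and at 25.2% and 7.81% in Müller-like droplets. Cone-like droplets held as much rod RNA as pure free RNA in the control (113.9%) and 65.7% of that level after light damage, so levels there are described with the expected free RNA beside them.

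Mcl1 and Apaf1 were called higher after light damage in both rod groups, Bad in high-unspliced rods, Bcl2l11 in RPE-like droplets, and Mcl1 and Bcl2l1 in Müller-like droplets. None of the 8 was called lower in any class. In low-unspliced rods 2 of the 8 genes were called higher, where 4.57% of 10142 genes were called higher and 1.2% lower. In high-unspliced rods 3 of 8 were called higher, where 7.38% of 12012 genes were called higher and 3.47% lower. In cone-like droplets none of the 7 genes with enough UMIs was called, against 16.1% of 8942 genes higher and 4.5% lower. In RPE-like droplets 1 of 7 was called higher, against 9.51% of 8887 genes higher and 5.55% lower. In Müller-like droplets only 3 of the 8 had enough UMIs and 2 of them were called higher, against 18.9% of 4533 genes higher and 15.8% lower. These 3, Mcl1, Bcl2l1 and Bax, reached the minimum only through the light damage group, with 149, 29 and 28 UMIs against 9, 2 and 4 in the control. The count of calls and the median ratio in that class are thus shaped by the filter, and no conclusion is drawn from them. The median log2 ratio of the members with enough UMIs was 0.69 in low-unspliced rods, 0.52 in high-unspliced rods, 0.23 in cone-like, -0.08 in RPE-like and 2.50 in Müller-like droplets. Over all genes with enough UMIs the medians were 0.18, 0.09, 0.30, 0.04 and 0.03 in the same order.

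**Figure D1:**
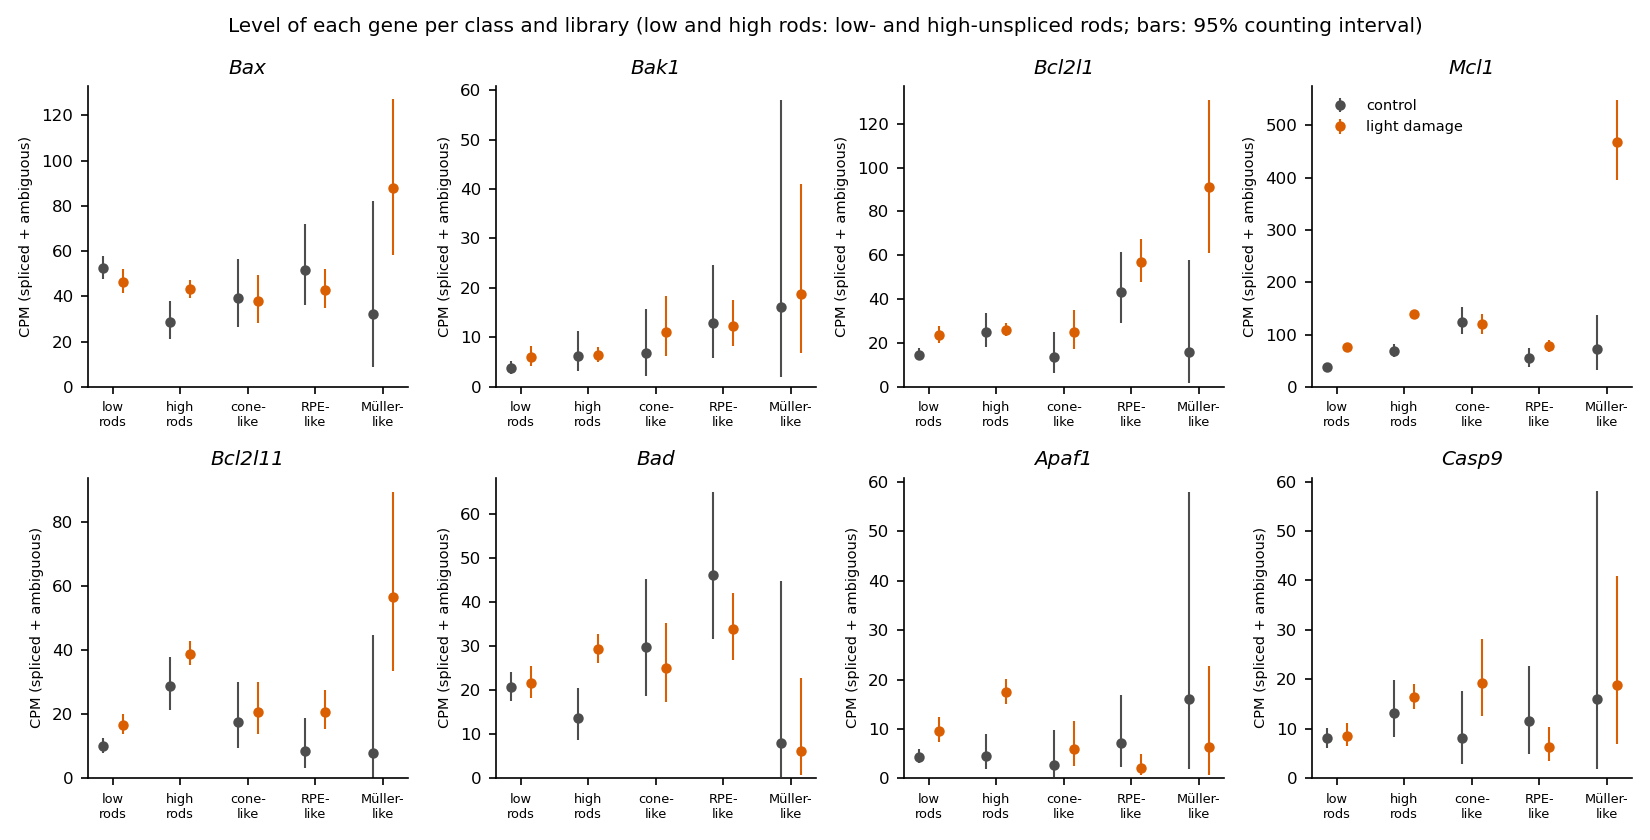
Level of each of the 8 genes in the 5 classes, in CPM of spliced plus ambiguous UMIs, for the control (grey) and the light damage library (orange), each point 1 group of summed droplets with its 95% counting interval. Mcl1 lies higher after light damage in both rod groups and reached 467.8 CPM in Müller-like droplets, while the intervals of most other genes overlap outside the rods.

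Mcl1, a short-lived protective protein, had the most UMIs of the 8 genes, 3073 over all classes, and was called in both rod groups. The gene (ENSMUSG00000038612) lies on chromosome 3 from 95658788 to 95663176 on the plus strand (GRCm38) and is 4.39 kb long. In low-unspliced rods it had 306 UMIs in the control and 494 after light damage, or 37.9 CPM (33.8 to 42.4) and 75.9 CPM (69.3 to 82.9). The log2 ratio was 1.00 (0.79 to 1.21), just past the 2-fold limit. The call was made under 7 of 15 other settings (0.83 to 1.304), among them a run without the UMI minimum, which repeats it by construction. In high-unspliced rods 119 and 1522 UMIs gave 68.2 CPM (56.5 to 81.6) and 140.1 CPM (133.2 to 147.3), a 2.05-fold difference (1.70 to 2.50). The intervals of the libraries did not overlap in either rod group. The median gene had a log2 ratio of 0.17 in low-unspliced and 0.02 in high-unspliced rods, and relative to it Mcl1 stood at 0.83 and 1.02, so the call in low-unspliced rods is lost by this centring.

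Mcl1 was higher after light damage in the 3 rod clusters that held over 100 droplets of each library, and its level differed among clusters of 1 library. Its UMIs were spread over 208 control and 341 light damage droplets of low-unspliced rods, with at most 5 and 9 UMIs in a droplet, and over 81 and 914 droplets of high-unspliced rods. Most control droplets of low-unspliced rods belonged to cluster 0 and most light damage droplets to cluster 1. Within cluster 0 the level was 34.0 CPM (28.9 to 39.8) in 1872 control and 65.9 CPM (51.5 to 82.9) in 458 light damage droplets, and within cluster 1 it was 42.9 CPM (35.8 to 51.1) and 76.9 CPM (69.5 to 85.0). High-unspliced rods fell mostly in cluster 4 in the control and in clusters 2 and 3 after light damage. Cluster 2 held 118 control and 1766 light damage droplets at 68.0 CPM (42.1 to 104.0) and 117.2 CPM (108.3 to 126.7). Cluster 3, with 1078 light damage and 3 control droplets and led by Jun and Stom, held 886 Mcl1 UMIs at 168.9 CPM (158.0 to 180.4), while cluster 7, with 250 light damage and 5 control droplets and led by Egr1, stood at 57.3 CPM (38.4 to 82.3), no higher than the 61.5 CPM (50.9 to 73.6) of the control droplets of cluster 4. Without the rod clusters of under 10 control droplets, a setting added after seeing the data, the log2 ratio in high-unspliced rods was 0.81 (0.52 to 1.11), under the 2-fold limit. When all rod droplets were divided into 7 bins of unspliced share, Mcl1 was higher after light damage in 7 of 7 bins, and the intervals were apart in 6 of them. Its control level ran from 36.6 to 101.0 CPM and its light damage level from 70.0 to 159.5 CPM over the bins.

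Free RNA showed a difference of like size, with Mcl1 at 54.0 CPM (41.9 to 68.5) in the control and 116.7 CPM (103.8 to 130.8) in the light damage library. Its expected contribution was small in rods, 3.8 of 306 and 4.0 of 494 UMIs in low-unspliced and 2.4 of 119 and 11.2 of 1522 in high-unspliced rods. With low-unspliced rods restricted to droplets under 10% unspliced and high-unspliced rods to those of at least 50%, the log2 ratios were 0.98 (0.75 to 1.20) and 0.80 (0.43 to 1.19), both under the 2-fold limit. High-unspliced rods of the light damage library also held 642.5 CPM of red blood cell markers against 13.8 CPM in the control; the part of this RNA in the levels was not tested.

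Unspliced Mcl1 RNA was rare in every class. In high-unspliced rods 2 unspliced UMIs were counted in the control and 51 after light damage, or 0.90 (0.11 to 3.3) and 4.3 (3.2 to 5.6) unspliced CPM. The log2 ratio of the unspliced level was 2.23 (0.31 to 5.32), in the same direction as the spliced level, but it rests on 2 control UMIs. The unspliced share of the gene's own UMIs was 1.65% in the control and 3.24% after light damage.

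The region around the start of Mcl1 is shown because Mcl1 was called in 3 of the 5 classes. The RefSeq start used here lies upstream of the GENCODE start, and the 300 bases from 250 before it to 50 after it (chr3:95658471-95658770, GRCm38.p6) read as follows, with capitals at the single match to the GC box GGGCGG on either strand.
Mcl1: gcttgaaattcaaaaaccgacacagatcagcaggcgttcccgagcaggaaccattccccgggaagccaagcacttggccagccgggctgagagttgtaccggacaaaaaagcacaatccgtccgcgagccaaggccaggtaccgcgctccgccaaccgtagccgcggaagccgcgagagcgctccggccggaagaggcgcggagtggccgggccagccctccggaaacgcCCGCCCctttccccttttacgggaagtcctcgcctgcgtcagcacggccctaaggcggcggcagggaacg
The letters TTCNNNGAA (STAT motif), TGANTCA (AP-1 motif), TGACGTCA (CRE motif) and TTTCCCGC (E2F motif) were not found in this window on either strand. They occur in 8.3%, 7.81%, 1.79% and 1.07% of the 32851 RefSeq promoter windows, and in none of the 12 windows of the 8 genes. The GC box occurs in 35.7% of all windows and in 7 of the 12, which belong to Apaf1, Bad, Bax, Bcl2l11, Casp9 and Mcl1. The letters CCAAT occur in 37.4% of all windows and in 3 of the 12, of Bad and Bcl2l11. The GC box and CCAAT were added after the other 4 motifs had given no match. GC content was 65.7% in the Mcl1 window and 52.7% in the median window.

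Apaf1, the scaffold of the apoptosome, was higher after light damage in both rod groups at much lower counts. The gene (ENSMUSG00000019979) lies on chromosome 10 from 90989311 to 91082770 on the minus strand and is, at 93.5 kb, the longest of the 8 genes. In low-unspliced rods 35 control and 63 light damage UMIs gave 4.34 CPM (3.02 to 6.03) and 9.68 CPM (7.44 to 12.4), a 2.23-fold difference (1.45 to 3.48). In high-unspliced rods 8 and 190 UMIs gave 4.59 CPM (1.98 to 9.03) and 17.5 CPM (15.1 to 20.2), a 3.81-fold difference (1.90 to 8.96). The control value there rests on 8 UMIs in 8 droplets. Expected free RNA was at most 0.5 UMIs in any rod group. Within cluster 0 the level was 4.12 CPM (2.48 to 6.43) in the control and 10.98 CPM (5.67 to 19.2) after light damage, and within cluster 1 it was 3.04 CPM (1.39 to 5.78) and 10.1 CPM (7.53 to 13.3). Over the 7 bins of unspliced share Apaf1 was higher after light damage in 6, with intervals apart in 2.

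Unspliced Apaf1 RNA did not show this difference. In high-unspliced rods 70 control and 438 light damage unspliced UMIs gave 31.7 (24.7 to 40.0) and 36.6 (33.2 to 40.1) unspliced CPM, a log2 ratio of 0.21 (-0.16 to 0.59). The spliced log2 ratio of 1.93 (0.92 to 3.16) lay above that interval. The unspliced share of Apaf1 UMIs was accordingly 89.7% (80.8 to 95.5) in the control and 69.7% (66.0 to 73.3) after light damage. With unspliced UMIs added to the spliced ones, the log2 ratio of Apaf1 in high-unspliced rods was 0.48 (0.14 to 0.84) and no longer passed the 2-fold limit. In low-unspliced rods 16 unspliced UMIs were counted in each library.

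The Apaf1 start region (chr10:91082694-91082993, GRCm38.p6, minus strand, 5′ to 3′ of the transcript) is given beside that of Mcl1, as the other gene called in both rod groups. It holds 3 matches to the GC box, in capitals, no match to the other 5 motifs, and 74.7% G and C.
Apaf1: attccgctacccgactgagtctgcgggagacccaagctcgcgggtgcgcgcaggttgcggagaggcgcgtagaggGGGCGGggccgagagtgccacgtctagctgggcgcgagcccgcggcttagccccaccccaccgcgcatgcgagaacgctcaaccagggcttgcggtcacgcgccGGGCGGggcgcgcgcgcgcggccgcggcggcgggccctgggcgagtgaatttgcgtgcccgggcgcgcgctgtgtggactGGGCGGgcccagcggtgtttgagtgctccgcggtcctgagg

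Casp9, the caspase that Apaf1 activates, was not called in any class. The gene (ENSMUSG00000028914) lies on chromosome 4 from 141793612 to 141815976 on the plus strand. In low-unspliced rods it had 65 control and 56 light damage UMIs, or 8.05 CPM (6.21 to 10.3) and 8.60 CPM (6.50 to 11.2), and the log2 ratio was 0.10 (-0.45 to 0.63). In high-unspliced rods 23 and 178 UMIs gave 13.2 CPM (8.36 to 19.8) and 16.4 CPM (14.1 to 19.0), with a log2 ratio of 0.31 (-0.32 to 1.01). These intervals hold no difference and, in high-unspliced rods, also a 2-fold one. In cone-like droplets 6 and 26 UMIs gave a log2 ratio of 1.24 (-0.07 to 2.81), and in RPE-like droplets 8 and 15 UMIs gave -0.86 (-2.19 to 0.59). The difference between these 2 ratios was -2.10 (-3.88 to -0.32), beyond counting error, but expected free RNA came to 6.7 of the 6 control and 8.0 of the 26 light damage UMIs in cone-like droplets.

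The effector genes were not called in either rod group. Bax (ENSMUSG00000003873), on chromosome 7 from 45461697 to 45466898 (minus strand), had 425 control and 303 light damage UMIs in low-unspliced rods. Its level there was 52.6 CPM (47.7 to 57.9) and 46.5 CPM (41.4 to 52.1), a log2 ratio of -0.18 (-0.40 to 0.04). In high-unspliced rods 50 and 470 UMIs gave 28.7 CPM (21.3 to 37.8) and 43.3 CPM (39.4 to 47.4), a log2 ratio of 0.59 (0.17 to 1.05) that did not reach the 2-fold limit. The ratio was larger in high- than in low-unspliced rods by 0.77 (0.30 to 1.24), and larger in high-unspliced rods than in RPE-like droplets by 0.87, with an interval of the RPE-like minus the rod ratio from -1.56 to -0.18. Over the 7 bins of unspliced share Bax was higher after light damage in 3, and the intervals were apart in 1, the bin from 25% to 40%, at 25.6 CPM (13.6 to 43.8) in 169 control and 54.5 CPM (45.3 to 65.1) in 357 light damage droplets. In the control, Bax was lower in high- than in low-unspliced rods by 0.88 on the log2 scale, the log2 ratio being -0.88 (-1.33 to -0.45), and after light damage this ratio was -0.11 (-0.32 to 0.11).

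Bak1 (ENSMUSG00000057789), the other effector gene, lies on chromosome 17 from 27019810 to 27029009 on the minus strand and had the fewest UMIs of the 8 genes, 216 over all classes. Its 30 control and 39 light damage UMIs in low-unspliced rods gave 3.72 CPM (2.51 to 5.30) and 5.99 CPM (4.26 to 8.19), with a log2 ratio of 0.69 (-0.03 to 1.43). In high-unspliced rods 11 and 70 UMIs gave 6.30 and 6.44 CPM, a ratio of 1.02-fold (0.538 to 2.14). A 2-fold difference in Bak1 could thus not be told from none at this depth.

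Bcl2l1 (ENSMUSG00000007659), the gene of Bcl-xL, lies on chromosome 2 from 152780668 to 152831728 on the minus strand. In low-unspliced rods it had 119 control and 155 light damage UMIs, or 14.7 CPM (12.2 to 17.6) and 23.8 CPM (20.2 to 27.9). The log2 ratio of 0.69 (0.34 to 1.05) was above 0 and under the 2-fold limit. In high-unspliced rods 44 and 282 UMIs gave 25.2 CPM (18.3 to 33.8) and 25.96 CPM (23.0 to 29.2), a log2 ratio of 0.04 (-0.42 to 0.53). The ratio of high-unspliced rods was smaller than that of low-unspliced rods, by a log2 difference of -0.65 (-1.22 to -0.08). Unspliced Bcl2l1 UMIs in high-unspliced rods were many, 132 and 795, and gave 59.7 (49.9 to 70.8) and 66.3 (61.8 to 71.1) unspliced CPM, a log2 ratio of 0.15 (-0.11 to 0.43). In low-unspliced rods 37 and 18 unspliced UMIs gave a log2 ratio of -0.77 (-1.67 to 0.08).

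A UMI of the 3′ chemistry stands for 1 captured RNA molecule whatever its length, but capture differs between genes. Only the shift in the balance of Mcl1 and Bcl2l1 against Bax and Bak1 can therefore be read, not the balance itself. In low-unspliced rods the UMIs of Mcl1 and Bcl2l1 together numbered 425 and those of Bax and Bak1 455 in the control, a quotient of 0.93 (0.82 to 1.07). After light damage they numbered 649 and 342, a quotient of 1.90 (1.66 to 2.17). In high-unspliced rods the quotient was 2.67 (1.98 to 3.65) from 163 and 61 UMIs in the control and 3.34 (3.03 to 3.68) from 1804 and 540 UMIs after light damage. The intervals were apart in low-unspliced rods and overlapped in high-unspliced rods. The protective genes Bcl2 and Bcl2l2 are not in this quotient, so it does not stand for all protective transcripts. Bcl2l2 had 640 control and 460 light damage UMIs in low-unspliced rods, a log2 ratio of -0.17 (-0.34 to 0.01). In high-unspliced rods its 79 and 357 UMIs gave -0.46 (-0.82 to -0.09).

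Of the BH3-only genes, Bad was called in high-unspliced rods and Bcl2l11 in neither rod group. Bcl2l11 (ENSMUSG00000027381), the gene of Bim, lies on chromosome 2 from 128126038 to 128162547 on the plus strand. In low-unspliced rods 81 control and 109 light damage UMIs gave 10.0 CPM (7.97 to 12.5) and 16.7 CPM (13.7 to 20.2), a log2 ratio of 0.74 (0.31 to 1.17). In high-unspliced rods 50 and 422 UMIs gave 28.7 CPM (21.3 to 37.8) and 38.8 CPM (35.2 to 42.7), a log2 ratio of 0.44 (0.01 to 0.89). Neither reached the 2-fold limit. Bcl2l11 was higher in high- than in low-unspliced rods of the same library, by a log2 ratio of 1.51 (0.98 to 2.04) in the control and 1.21 (0.91 to 1.53) after light damage. Its unspliced level in high-unspliced rods was alike, 24.0 (17.9 to 31.3) unspliced CPM from 53 UMIs and 24.3 (21.6 to 27.2) from 291 UMIs, with a log2 ratio of 0.02 (-0.41 to 0.47).

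Bad (ENSMUSG00000024959), on chromosome 19 from 6941861 to 6951899 on the plus strand, had 167 control and 141 light damage UMIs in low-unspliced rods, or 20.7 CPM (17.7 to 24.1) and 21.7 CPM (18.2 to 25.5), and a log2 ratio of 0.07 (-0.27 to 0.40). One control droplet held 16 of the 167 UMIs. In high-unspliced rods 24 and 319 UMIs gave 13.8 CPM (8.81 to 20.5) and 29.4 CPM (26.2 to 32.8), a 2.13-fold difference (1.41 to 3.38) that was called higher. The ratio in high-unspliced rods exceeded that in low-unspliced rods by 1.03 (0.35 to 1.71). Free RNA held Bad at 17.5 CPM (10.9 to 26.4) in the control and 38.0 CPM (30.8 to 46.3) in the light damage library, and was expected to give 0.8 of the 24 and 3.7 of the 319 UMIs. Unspliced Bad UMIs numbered 22 and 79, and their level differed by a log2 ratio of -0.59 (-1.29 to 0.16). The call was made under 8 of 15 other settings, among them a run without the UMI minimum, which repeats it by construction. With unspliced UMIs added the log2 ratio was 0.58.

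**Figure D2:**
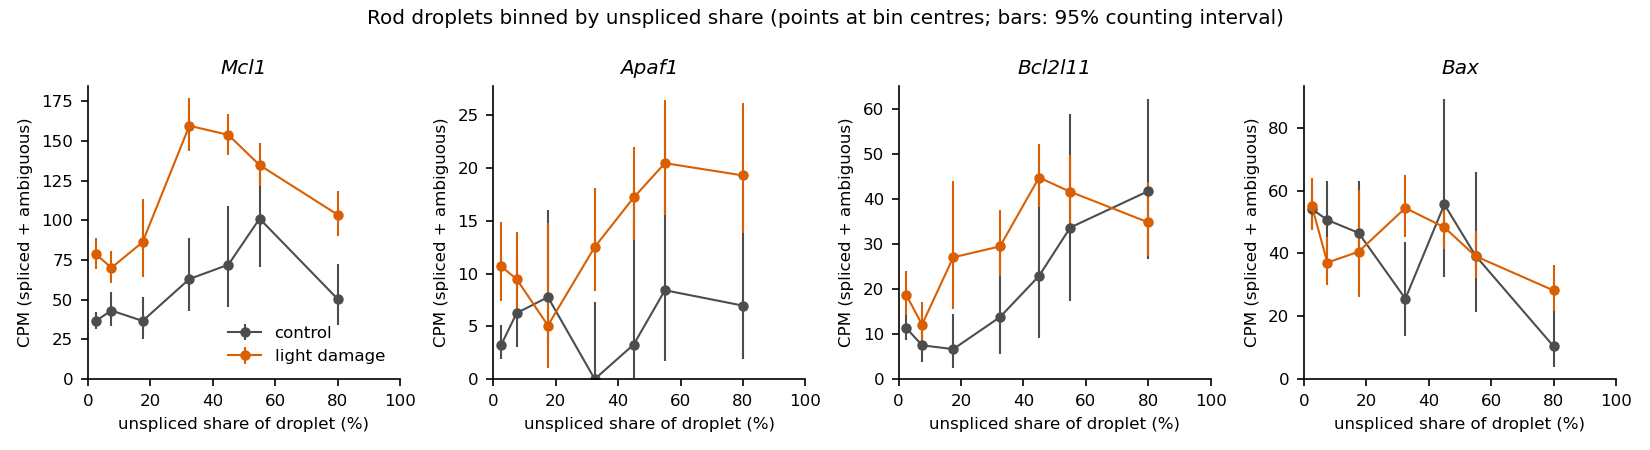
CPM of Mcl1, Apaf1, Bcl2l11 and Bax in rod droplets grouped into 7 bins of unspliced share (x axis, percent), for the control (grey) and the light damage library (orange), with 95% counting intervals. Mcl1 lies higher after light damage in 7 of 7 bins, Apaf1 and Bcl2l11 in 6, and Bax in 3.

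The share of unspliced RNA followed gene length. In high-unspliced rods of the control, the unspliced share of a gene's UMIs ran from 1.65% for Mcl1 and 7.41% for Bax, the shortest 2 genes, over 21.4% for Bak1, 47.8% for Bad, 23.3% for Casp9 and 51.5% for Bcl2l11, to 75.0% for Bcl2l1 and 89.7% for Apaf1, the longest 2. Spearman's rho between length and unspliced share over the 8 genes was 0.98 in the control and 0.95 after light damage, given as a description of genes that share 1 library.

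**Figure D3:**
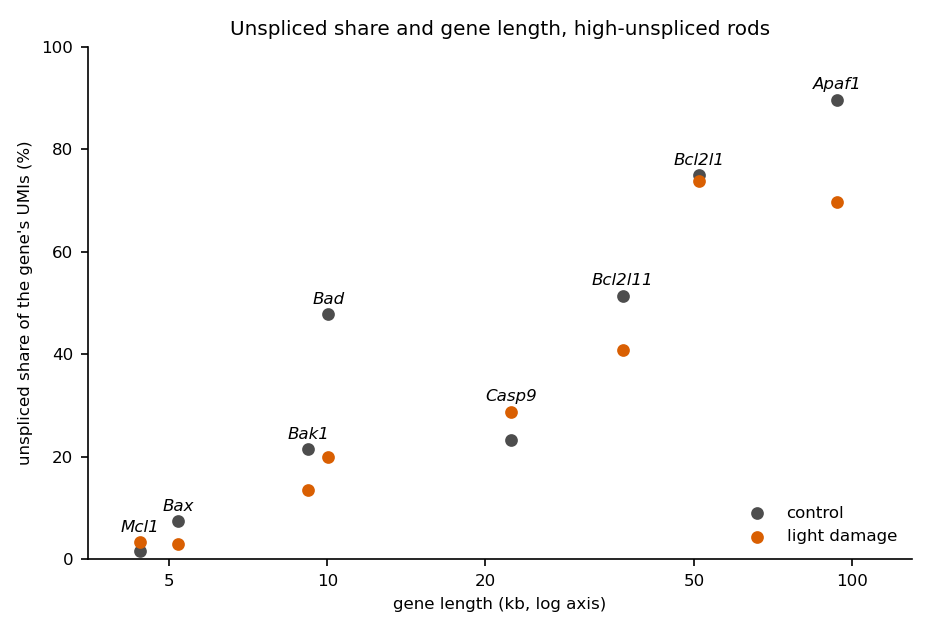
Unspliced share of each gene's UMIs (y axis, percent) against gene length (x axis, kb, log scale) in high-unspliced rods of the control (grey) and the light damage library (orange), 1 point per gene and library. In the control the lowest share is that of Mcl1 at 4.39 kb and the highest that of Apaf1 at 93.5 kb, and the points of Apaf1 and Bad lie furthest apart between libraries.

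In RPE-like droplets Bcl2l11 was the 1 gene called. It had 6 control and 49 light damage UMIs, or 8.64 CPM (3.17 to 18.8) and 20.7 CPM (15.3 to 27.4), a 2.40-fold difference (1.03 to 6.86) whose interval barely excluded equality. The RPE-like droplets of the light damage library formed 2 clusters. Cluster 5 was shared by both libraries, and cluster 9, with 120 droplets led by Chil1, Serpina3n and Ptx3, held light damage droplets only. Bcl2l11 stood at 32.4 CPM in cluster 9, from 37 UMIs, and at 9.83 CPM in the light damage droplets of cluster 5, from 12 UMIs, a log2 ratio of 1.72 (0.75 to 2.80). Within cluster 5 light damage and control differed by a log2 ratio of 0.19 (-1.34 to 1.88), so the call was lost without cluster 9. Mcl1 showed the same order in smaller measure, with 96.4 CPM in cluster 9 and 59.8 CPM in the light damage droplets of cluster 5, a log2 ratio of 0.69 (0.25 to 1.14).

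Over all RPE-like droplets Mcl1 had 38 control and 183 light damage UMIs, or 54.7 CPM (38.7 to 75.1) and 77.5 CPM (66.6 to 89.5), with a log2 ratio of 0.50 (-0.01 to 1.05). Bcl2l1 had 43.2 CPM (29.2 to 61.7) and 57.1 CPM (47.9 to 67.6), a log2 ratio of 0.40 (-0.18 to 1.03). Bax stood at 51.9 CPM (36.3 to 71.8) and 42.7 CPM (34.8 to 51.9), and Bad at 46.1 CPM (31.5 to 65.1) and 33.9 CPM (26.85 to 42.1), with log2 ratios of -0.28 (-0.84 to 0.31) and -0.44 (-1.05 to 0.19). Bak1 had 9 and 29 UMIs and a log2 ratio of -0.08 (-1.20 to 1.19). Apaf1 had 5 UMIs in each library, too few for a call, and a log2 ratio of -1.77 (-3.89 to 0.35). That ratio was lower than in low-unspliced rods by a log2 difference of -2.93 (-4.81 to -1.04) and than in high-unspliced rods by -3.70 (-5.76 to -1.64). Each difference rests on those 5 UMIs per library, and 4 of the 5 control UMIs came from a single droplet. Without the droplet with most Apaf1 UMIs in each library, 1 and 4 UMIs gave a log2 ratio of 0.23 (-3.11 to 5.85). The sign of the Apaf1 ratio in RPE-like droplets thus depends on 1 droplet.

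Müller-like droplets showed the widest difference in Mcl1. The 9 control UMIs came from 5 of 49 droplets and the 149 light damage UMIs from 25 of 27 droplets, and the level was 72.3 CPM (33.0 to 137.2) and 467.8 CPM (395.7 to 549.3). The ratio was 6.47-fold (3.32 to 14.4), but it turned to a log2 ratio of -0.74 (-1.16 to -0.32) when each droplet was named by its own marker UMIs, which put 120 control and 226 light damage droplets in this class. Bcl2l1 had 2 control and 29 light damage UMIs, or 16.1 CPM (1.95 to 58.0) and 91.1 CPM (61.0 to 130.8), a 5.67-fold difference with a wide interval (1.43 to 49.0). Its unspliced UMIs numbered 5 and 99 and gave 37.2 (12.1 to 86.9) and 299.9 (243.8 to 365.1) unspliced CPM, a log2 ratio of 3.01 (1.74 to 4.66). Bax had 4 and 28 UMIs and a log2 ratio of 1.45 (-0.06 to 3.42). It met the rule for a call with expected free RNA subtracted (2.08, 0.08 to 5.20), without droplets of high free RNA share (2.20, 0.21 to 5.32), with centring on the median gene (2.03, 0.51 to 4.00), with droplets named singly (1.25, 0.09 to 2.64) and without the droplet with most Bax UMIs (2.05, 0.01 to 5.19). Bcl2l11 had 1 and 18 UMIs, 1 short of the minimum for a call, and the other 4 genes had between 1 and 6 UMIs in each library.

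These droplets are the weakest basis of the 5 classes. The control droplets belonged to cluster 12 and, apart from 1, the light damage droplets to cluster 13, which was led by Cp, Tnfaip6 and Adamts1 and held no control droplet. The median droplet had 2335 UMIs in the control and 22134 after light damage, summed Müller markers stood at 25787 and 11372 CPM, and summed rod markers at 23386 and 5561 CPM. The median gene had a log2 ratio of -0.58, and relative to it Mcl1 stood at 3.27 and Bcl2l1 at 3.08. Cluster, depth and light damage cannot be told apart here. The ratio of Mcl1 in Müller-like droplets was larger than in low-unspliced rods by 1.69 (0.70 to 2.69) and than in high-unspliced rods by 1.66 (0.65 to 2.66).

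In cone-like droplets no gene was called, and for several genes the counts of at least 1 library did not exceed free RNA. Bax had 29 control and 51 light damage UMIs where 45.3 and 67.4 were expected from free RNA, so its level is read as background. Bcl2l1 had 10 and 34 where 23.3 and 27.1 were expected, so its control count was under and its light damage count above the expectation. The expectation is itself uncertain, since the control estimate came to 113.9%. Mcl1 had 92 and 161 UMIs, with 45.3 and 103.6 expected, and its level was 124.8 CPM (100.6 to 153.1) and 119.1 CPM (101.5 to 139.0), a log2 ratio of -0.07 (-0.45 to 0.32). That ratio rests on 1 droplet: 50 of the 92 control UMIs came from a single droplet of 49655 spliced plus ambiguous UMIs. Without the droplet with most Mcl1 UMIs in each library, a setting added after seeing the data, the log2 ratio was 0.87 (0.37 to 1.40), under the 2-fold limit. Bcl2l11 had 13 and 28 UMIs with 6.7 and 11.8 expected, Bad 22 and 34 with 14.7 and 33.7 expected, and Bak1 5 and 15 with 4.0 and 6.3 expected. Apaf1, with 2 and 8 UMIs, had too few for a call.

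**Figure D4:**
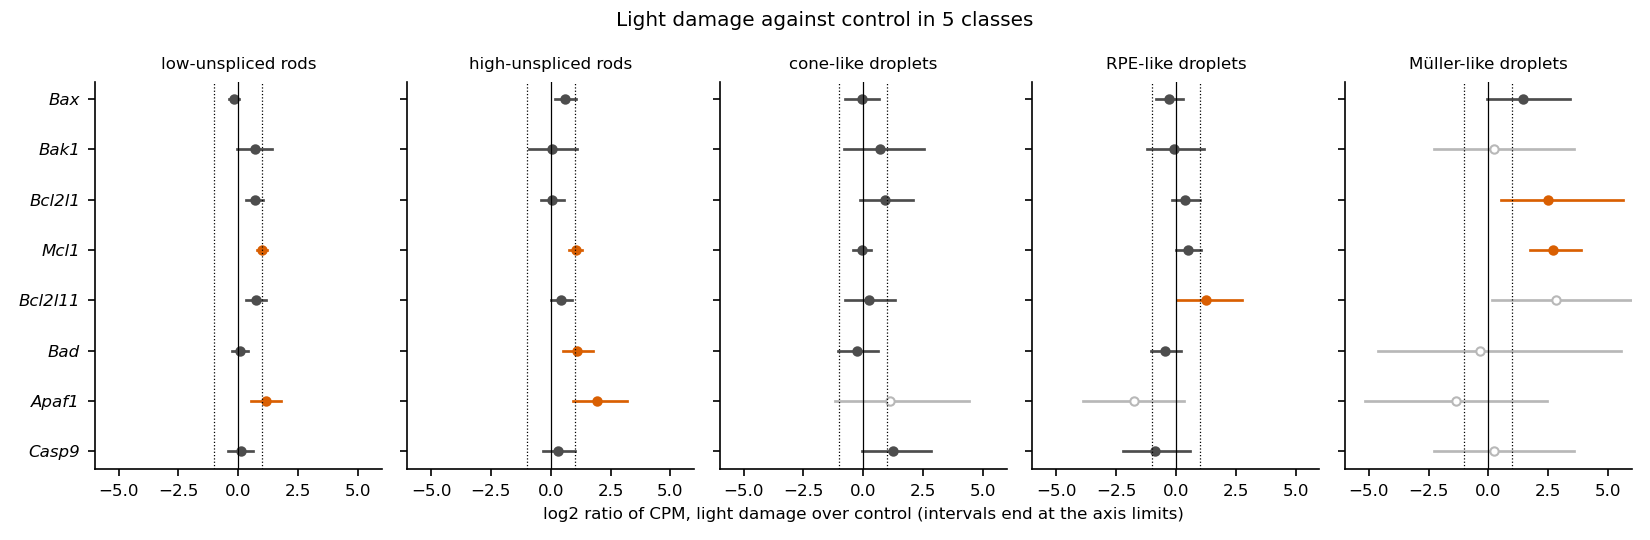
Log2 ratio of CPM, light damage over control, for the 8 genes in each of the 5 classes, with 95% counting intervals that end at the axis limits. Orange marks genes called higher, dark grey genes not called and open light points genes under 20 UMIs; the dotted lines mark 2-fold, and Mcl1 and Apaf1 are past them in both rod groups.

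The order of the classes by level differed from gene to gene. Classes are described as apart where their separate intervals of CPM did not overlap. In the control library the intervals of neighbouring classes overlapped for all 8 genes. Such an overlap does not show that the levels were alike, since the interval of a ratio can still exclude equality. Within a library, ratios between classes were computed for high- against low-unspliced rods only, and other neighbours were not tested in this way. In the light damage library Müller-like droplets were highest for Bax, Bcl2l1, Mcl1, Bcl2l11 and Bak1, RPE-like droplets for Bad, high-unspliced rods for Apaf1 and cone-like droplets for Casp9. Müller-like droplets were apart from the next class for Bax (low-unspliced rods) and for Mcl1 (high-unspliced rods). High-unspliced rods were apart from the class after them for Bcl2l11 (RPE-like), Apaf1 and Casp9 (low-unspliced rods). Bcl2l1 was apart between RPE-like droplets and high-unspliced rods, and Mcl1 between cone- and RPE-like droplets. In both libraries Mcl1 was higher in high- than in low-unspliced rods, by a log2 ratio of 0.85 (0.53 to 1.16) in the control and 0.88 (0.74 to 1.03) after light damage. Apaf1 and Casp9 were higher in high-unspliced rods after light damage, by 0.85 (0.44 to 1.29) and 0.93 (0.49 to 1.39), while in the control the log2 ratios were 0.08 (-1.24 to 1.21) and 0.71 (-0.04 to 1.42).

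Among 7566 other genes, the pattern of log2(CPM + 1) over the 10 groups of class and library was most like that of Mcl1 for Lgals8 (Pearson's r of 0.95), of Bcl2l11 for Usp16 (0.97), of Bad for Tmem86a (0.96), of Bak1 for Tsc22d4 (0.96), of Bcl2l1 for Rab8b (0.95), of Casp9 for Exoc4 (0.94), of Apaf1 for Zfp212 (0.91) and of Bax for Cdk16 (0.89). The 10 groups share 2 libraries and differ in depth, and the values are given as a description.

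The other genes of the pathway were taken from 8 lists that hold 58 genes besides the 8. Of these, 3 of 30 with enough UMIs were called higher in low-unspliced rods, 5 of 35 in high-unspliced rods, 2 of 26 in cone-like, 8 of 34 in RPE-like and 6 of 16 in Müller-like droplets. Over all genes 4.57%, 7.38%, 16.1%, 9.51% and 18.9% were called higher, so that the share in cone-like droplets lay below that of all genes. Lower calls numbered 0, 1, 0, 0 and 2, where 1.2%, 3.47%, 4.5%, 5.55% and 15.8% of all genes were called lower. The median log2 ratios were 0.02, 0.20, 0.29, 0.26 and 0.54, beside the medians over all genes given above. In Müller-like droplets the genes called higher had 10 or fewer control UMIs each and reached the minimum only through the light damage group. The calls of these further genes in RPE-like droplets were not tested without cluster 9, whose 120 droplets all came from the light damage library. Their calls in rods were likewise not tested without clusters 3 and 7, which held 1078 and 250 light damage but only 3 and 5 control droplets.

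At least 1 gene of the list of death receptors and adaptors was called higher in every class. In both rod groups it was Ripk1 alone, and in cone-like droplets Tnfrsf12a alone. Ripk1, the kinase recruited to the tumour necrosis factor receptor, had 12 control and 54 light damage UMIs in low-unspliced rods, a log2 ratio of 2.48 (1.56 to 3.52). In high-unspliced rods it had 21 and 566 UMIs and a ratio of 2.11 (1.49 to 2.82), in RPE-like droplets 3 and 83 UMIs and 3.02 (1.43 to 5.33), and in Müller-like droplets 2 and 28 UMIs and 2.45 (0.46 to 5.57). Tnfrsf12a, the receptor of the cytokine TWEAK, had 5 and 145 UMIs in cone-like droplets, a log2 ratio of 3.98 (2.73 to 5.63), of which free RNA was expected to give 5.3 and 66.7. Free RNA itself held Tnfrsf12a at 6.35 and 75.2 CPM. In RPE-like droplets it had 1 and 255 UMIs, with 0.45 and 11.6 expected, and a ratio of 6.23 (3.74 to 11.54). In Müller-like droplets it had none and 275, 35.8-fold the level of a floor of 3 UMIs in the control group. The interval of its log2 ratio there began at 4.86. In rods its log2 ratios were -0.26 (-0.83 to 0.29) and 0.52 (-0.12 to 1.22). Fas, a death receptor, had no control and 76 light damage UMIs in RPE-like droplets, 7.44-fold the level of the same floor. The interval of its log2 ratio there began at 2.56. In Müller-like droplets Fas had 2 and 58 UMIs, a log2 ratio with an interval from 1.59 to 6.58. Tnfrsf1a, the main receptor of tumour necrosis factor, had log2 ratios of 2.39 (1.64 to 3.25) in RPE-like and 1.70 (0.56 to 3.07) in Müller-like droplets. Rods held at most 4 UMIs of Fas in a group.

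Casp8, the initiator caspase of death receptors, had 7 control and 71 light damage UMIs in RPE-like droplets and was called higher, with a log2 ratio of 1.58 (0.46 to 2.94). Of the caspase inhibitors, Birc3 had 6 and 125 UMIs in RPE-like droplets, a ratio of 2.61 (1.45 to 4.09). Birc2 was called higher in RPE-like (1.36, 0.23 to 2.73) and Müller-like droplets (2.36, 1.33 to 3.61), and Cflar, which blocks caspase 8, in Müller-like droplets (1.39, 0.42 to 2.51).

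Calls within the Bcl-2 family are counted here over its listed genes with enough UMIs, the 8 included. In high-unspliced rods 2 of 5 protective and 2 of 9 BH3-only genes were called higher, against 7.38% of all genes. Lower calls there numbered 0 and 1, against 3.47%. In RPE-like droplets 0 of 4 and 2 of 6 were called higher, against 9.51%. In Müller-like droplets 2 of 3 protective genes were called higher and 1 lower, as was 1 of 2 BH3-only genes, against 18.9% and 15.8%. Bbc3 (Puma), a BH3-only gene, had 1 control and 76 light damage UMIs in high-unspliced rods, a log2 ratio of 3.61 (1.09 to 8.93), and Bcl2l10 had 2 and 123, a ratio of 3.30 (1.42 to 6.37). Bid, which links death receptors to the mitochondrion, was called lower in high-unspliced rods, with 11 and 31 UMIs and a ratio of -1.14 (-2.17 to -0.00). In RPE-like droplets Bid had no control and 52 light damage UMIs, 5.09-fold the level of a floor of 3 UMIs in the control group. The interval of its log2 ratio there began at 1.999. In Müller-like droplets Bcl2l2 was called lower, with 11 and 10 UMIs (-1.49, -2.89 to -0.12), as was Bnip3l, a mitophagy receptor gene, with 45 and 30 UMIs (-1.94, -2.66 to -1.24). Bcl2 itself was not called in any class and had log2 ratios of -0.17 (-0.62 to 0.27) and -0.18 (-0.56 to 0.21) in the rod groups. Of the caspase substrates and other cell death genes, Parp1 was called higher in low-unspliced rods (1.04, 0.83 to 1.25). Gsdme, whose cleaved protein forms membrane pores, was called higher in low-unspliced rods (1.61, 0.71 to 2.58), high-unspliced rods (1.14, 0.30 to 2.12) and cone-like droplets (2.23, 1.80 to 2.69). In cone-like droplets its 49 and 421 UMIs compare with 10.0 and 21.9 expected from free RNA.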

How the data were processed

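Retinal cells of pooled mice were captured with the 10x Genomics 3′ chemistry after removal of dead cells. The authors mapped reads with Salmon 1.10.1 and alevin-fry 0.8.1 to a spliced and intron reference of the 10x Genomics mm10 data (read length 90), kept forward-strand reads only, and deposited raw counts of UMIs per barcode and gene as spliced, unspliced and ambiguous blocks, with no filter on barcodes. Gene names come from GENCODE vM21, not from the annotation in that reference, promoters from the RefSeq table of GRCm38.p6. The minimum per droplet was 500 UMIs or, where larger, the inflection of the ranked barcodes (1464 and 1614) with a mitochondrial share under 10%; 114 and 276 droplets with the highest Scrublet scores (0.8% per 1000 droplets) were left out, since the automatic threshold called 1 and 0. Counts scaled to 10000 were clustered on 2000 variable genes, 50 principal components, 15 neighbours and a Leiden resolution of 1. Marker scores were mean log2 ratios of marker levels in a cluster against the other droplets. Clusters took the name of their highest non-rod list among those with a score of at least 1 and at least 3 markers detected. Without such a list, a cluster was named rod where its rod score was at least -1.5 with at least 3 rod markers detected. A name was dropped where another list had more markers among the 10 leading genes. Rules were adjusted after the clusters were seen, and the study's own names were not used. UMIs were added up within each class of a library. Intervals of CPM are exact Poisson, those of log2 ratios exact conditional binomial and those of shares exact (Clopper-Pearson) binomial; differences between ratios of 2 classes use a normal approximation of counting error. All 8 genes are named in every class; further pathway genes are named where called in at least 1 class, except 1 that is not reported here, and for each of the 8 the gene with the most alike pattern among genes of at least 500 UMIs. The genes and lists were chosen with earlier results of these data known, so no list is tested. The calls were tested on simulated counts with counting error only. Variation between mice, libraries, clusters or droplets was not simulated, so this test does not cover it. Clustering used scanpy 1.11.5 with leidenalg 0.10.2 and igraph 0.11.9, and sums and intervals used pandas 2.3.3, scipy 1.17.1 and numpy 2.4.6 under Python 3.11.15.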

Additional observations from a re-analysis of the deposited data

Results flagged for a closer look

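The comparisons above leave out the microglia-like droplets, of which there were 12 control and 40 light damage ones. Values of Mcl1 and Bcl2l1 stood out there as signal in data outside the main comparisons. Mcl1 had 2 control and 231 light damage UMIs there, or 61.1 and 647.5 CPM, a log2 ratio of 3.41 (1.54 to 6.46). Bcl2l1 had no control and 48 light damage UMIs (134.5 CPM), 1.47-fold the level of a floor of 3 UMIs in the control group. The interval of its log2 ratio began at 0.20. Bax did not share this, with 7 and 64 UMIs and a log2 ratio of -0.25 (-1.38 to 1.12). The control values rest on 12 droplets, and the part of depth and cluster in these values was not tested.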

How the results depend on the processing

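With 1 library per condition no replicate could be left out, and the intervals cover counting error only. No paired analysis was possible because each condition has 1 library. Of 521 values of single genes under other settings, 510 stayed within the counting interval of the main value, 10 moved beyond it and 1 reversed: with each droplet named by its own marker UMIs, Mcl1 in Müller-like droplets had a log2 ratio of -0.74 (-1.16 to -0.32), over 120 control and 226 light damage droplets in place of 49 and 27, and only 1 gene, Bax, was called higher there, as it was under 4 other settings; the cause was not tested. Mcl1 in low-unspliced rods was called under 7 of 15 other settings (0.83 to 1.304) and in high-unspliced rods under 12 of 15 (0.80 to 1.17). Apaf1 was called under 13 of 15 (0.94 to 1.41) and 14 of 15 (0.48 to 2.07) in the same order, Bad in high-unspliced rods under 8 of 15 (0.58 to 1.49), Bcl2l11 in RPE-like droplets under 10 of 13 (0.19 to 3.57), and Mcl1 and Bcl2l1 in Müller-like droplets each under 11 of 12. In low-unspliced rods 1 gene, Apaf1, was called higher with at least 1000 UMIs per droplet, with mitochondrial RNA under 5%, with droplets under 10% unspliced only, a total without ribosomal protein and mitochondrial genes, a Leiden resolution of 2 or droplets named singly, and 0 with unspliced UMIs added or centring on the median gene. In high-unspliced rods 1 was called higher with droplets of at least 50% unspliced only (where Bcl2l11 moved to 0.00 and Casp9 to -0.41), without the rod clusters of under 10 control droplets (both Apaf1) and with unspliced UMIs added (Mcl1). In cone-like droplets 2 were called higher with a minimum of 1000 UMIs (Bcl2l1 and Casp9), 1 with no doublet removal or without the droplet with most UMIs of the member (Casp9), and 3 with droplets named singly (Bcl2l1, Apaf1 and Casp9). There 1 gene, Mcl1, was called lower without droplets of high free RNA share, at -2.16 (-2.68 to -1.63), which left 4 control droplets. In RPE-like droplets 0 were called higher with a mitochondrial limit of 5%, without droplets of high free RNA share or without the cluster of light damage droplets only, and 1, Casp9, was called lower with a minimum of 1000 UMIs. Subtracting expected free RNA was not run for cone-like droplets, whose estimate was above 100%. The settings without 1 cluster, without rod clusters and without the top droplet were chosen after seeing the data.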

Other observations

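Bipolar- and amacrine-like droplets, 44 control and 18 light damage ones, held too few UMIs for a call on any of the 8 genes but Mcl1, which had 9 and 21 UMIs and a log2 ratio of 0.12 (-1.07 to 1.43). Bax had 4 and 12 UMIs there, and the other 6 genes at most 8 in a library. An unnamed cluster of 200 droplets led by Rgs5, Ly6c1 and Ifi203 held 191 light damage and 9 control droplets. Its light damage droplets had Mcl1 at 108.2 CPM, Bax at 39.1 CPM and Bcl2l1 at 37.6 CPM, from 72, 26 and 25 UMIs, and its control droplets had no UMI of these genes. With a Leiden resolution of 2 the Müller-like class grew to 58 control and 103 light damage droplets, so that the makeup of that class depends on how finely droplets are divided.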
